A study of Homo sapiens with 16 samples.

Results

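The enzymes that write and erase DNA methylation were followed as 9 genes, DNMT1, DNMT3A, DNMT3B, UHRF1, UHRF2, HELLS, TET1, TET2 and TET3, of the 32080 gene symbols on the array. They were chosen by symbol and not by a threshold on any measured value, and 21 of the 50599 array features carried one of these symbols. The cells were RPMI-8226 and MM.1S, established human multiple myeloma lines, which are cancers of plasma cells. Each line was grown for 6 days in the solvent DMSO, in GSK126 at 1 µM, in UNC0638 at 1 µM, or in both at 1 µM each. GSK126 blocks EZH2, which methylates lysine 27 of histone H3, and UNC0638 blocks G9a (EHMT2), which methylates lysine 9. Each of the 8 groups had 2 biological replicates, which gave 16 1-colour arrays with 1 sample on each. All RPMI-8226 arrays shared a slide and all MM.1S arrays another, and in comparisons between the lines the effects of slide and line cannot be told apart. The 8 plasma cell markers checked, among them SDC1, TNFRSF17 and IRF4, were well above background on all 16 arrays, and the B cell genes PAX5 and CD22 were above it on none. Of the markers of other blood cells, CD3D, CD2 and CD14 were also above background on all 16 arrays, and several of these markers rose with the combination. In RPMI-8226 4 of 4 T cell markers, 2 of 3 myeloid markers and the B cell gene MS4A1 rose, among them CD3D by 4.98, CD2 by 2.60 and CD14 by 2.65 on the log2 scale, and in MM.1S CD3E, CD2, ITGAM and MS4A1 rose, CD2 by 1.99 and ITGAM by 3.58. No size is given for those not above background on all arrays of the line. The plasma cell markers moved the other way in MM.1S, where all 8 fell, and in RPMI-8226 3 of 8 fell and SLAMF7 rose. Over all genes, by the test described below, 8.06% rose and 5.03% fell in RPMI-8226, and 23.2% rose and 32% fell in MM.1S. The part of the marker shifts in the results that follow was not tested.

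In mammals DNA methylation is placed on cytosines that precede a guanine and is copied at each cell division. DNMT1 restores the mark on the new strand after replication, and UHRF1 brings it there by binding hemimethylated DNA and methylated H3K9. HELLS (LSH) is a chromatin remodeller that opens nucleosomal DNA to the methyltransferases, and UHRF2 is a relative of UHRF1. DNMT3A and DNMT3B set new marks on unmethylated DNA. TET1, TET2 and TET3 oxidise methylcytosine, which begins its removal, and loss of TET2 or DNMT3A function is frequent in blood cancers. Neither inhibitor acts on any of these enzymes directly.

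A stretch of promoter is shown for each of 3 genes that fell together in MM.1S cells, DNMT1, UHRF1 and HELLS. Stretches from DNMT3B, which also fell, and TET2, which rose, are set beside them. Sequences and positions are from RefSeq on GRCh38.p14, and 20 windows matched the 9 symbols, since several genes have more than 1 start site. A window runs from 250 bases before a start site to 50 bases after it, and the stretches printed end at the start site or at the end of a motif. Capitals mark TTTNGCGC, a form of the site that E2F factors of the cell cycle bind, in DNMT1, UHRF1 and HELLS, and CACGTG, the E-box that MYC and related factors bind, in TET2, with the E2F form also read as its reverse complement. Both motifs were searched on both strands and do not overlap each other, and they were picked after the values and windows had been seen.
DNMT1, chr19:10194948-10195103, minus strand: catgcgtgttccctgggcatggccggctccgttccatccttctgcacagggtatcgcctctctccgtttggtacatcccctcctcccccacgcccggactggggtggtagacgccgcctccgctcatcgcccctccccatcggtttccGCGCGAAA
UHRF1, chr19:4909974-4910143, plus strand: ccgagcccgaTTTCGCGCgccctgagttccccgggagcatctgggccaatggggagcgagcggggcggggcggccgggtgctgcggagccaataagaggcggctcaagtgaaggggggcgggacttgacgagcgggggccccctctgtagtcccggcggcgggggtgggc
HELLS, chr10:94545638-94545787, plus strand: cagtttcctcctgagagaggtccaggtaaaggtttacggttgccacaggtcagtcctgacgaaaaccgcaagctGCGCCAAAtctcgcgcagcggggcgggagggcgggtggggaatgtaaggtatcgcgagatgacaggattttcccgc
DNMT3B, chr20:32779702-32779851, plus strand: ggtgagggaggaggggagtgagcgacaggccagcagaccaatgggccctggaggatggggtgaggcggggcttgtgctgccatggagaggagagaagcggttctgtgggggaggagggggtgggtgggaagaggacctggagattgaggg
TET2, chr4:105145725-105145874, plus strand: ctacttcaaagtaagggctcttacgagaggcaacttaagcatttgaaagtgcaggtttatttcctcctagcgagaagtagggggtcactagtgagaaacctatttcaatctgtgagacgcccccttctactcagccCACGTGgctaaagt
TTTNGCGC was in 1.79% of the 35116 windows of all genes and, among the members, only in windows of these 3 genes, at 1 place in each. CACGTG was in 7.26% of all windows, and among the members in windows of DNMT3A, TET2 and TET3. UHRF1 and TET2 have further windows, which held neither motif, and the windows printed were those with a match. The only DNMT3B window held neither motif and 3 CpG dinucleotides, the fewest of the 20 windows. The median was 14 over all windows, and the richest member windows, of DNMT3A and UHRF1, held 46. Whether that window lies at the main start site of DNMT3B was not looked up, so it may not stand for the gene's promoter. A match is a description of the letters and does not show that a factor binds there.

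A level is the log2 signal of a probe minus the 75th percentile of its array, so that 0 is the brightness of that percentile and 1 unit is a doubling. A gene was read by its brightest probe, and the levels of different probes cannot be set against each other. A difference counts as called where the limma test gave an adjusted p under 0.05 over all probes kept. TET3 was well above background on only 1 of 16 arrays with its brighter probe and on 0 with the other, so it was not tested, and 8 of the 9 genes were tested in each line. With GSK126+UNC0638 against DMSO all 8 were called in MM.1S, where 5 fell (DNMT1, UHRF1, HELLS, UHRF2 and DNMT3B) and 3 rose (DNMT3A, TET1 and TET2). In the same comparison 32% of 16986 genes were called lower and 23.2% higher, so change was common in this line. In RPMI-8226 0 of the 8 were called with the combination by limma, 3 had an unadjusted p under 0.05 (DNMT3A, DNMT3B and TET2), and 8.06% of 16018 genes were called higher and 5.03% lower. With the replicate number as a block, which the deviations of the RPMI-8226 arrays allow, 1 was called there, TET2. When the percentile was taken over the probes detected on all 16 arrays, the higher share of all probe calls moved from 41.3% to 57.8% in MM.1S and from 56.6% to 74.8% in RPMI-8226, where it fell to 41.9% over the probes above background on all arrays, 43.6% in 1 fit over all 16 arrays, 45.9% with an intensity trend and 48.2% with normexp correction. The scaling over detected probes moved the median change of all probes up by 0.18 and 0.14, and all 8 members kept their direction in MM.1S, where UHRF2 was then not called. The plot of the levels on each array shows all 9 genes with these groups side by side.

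**Figure D1:**
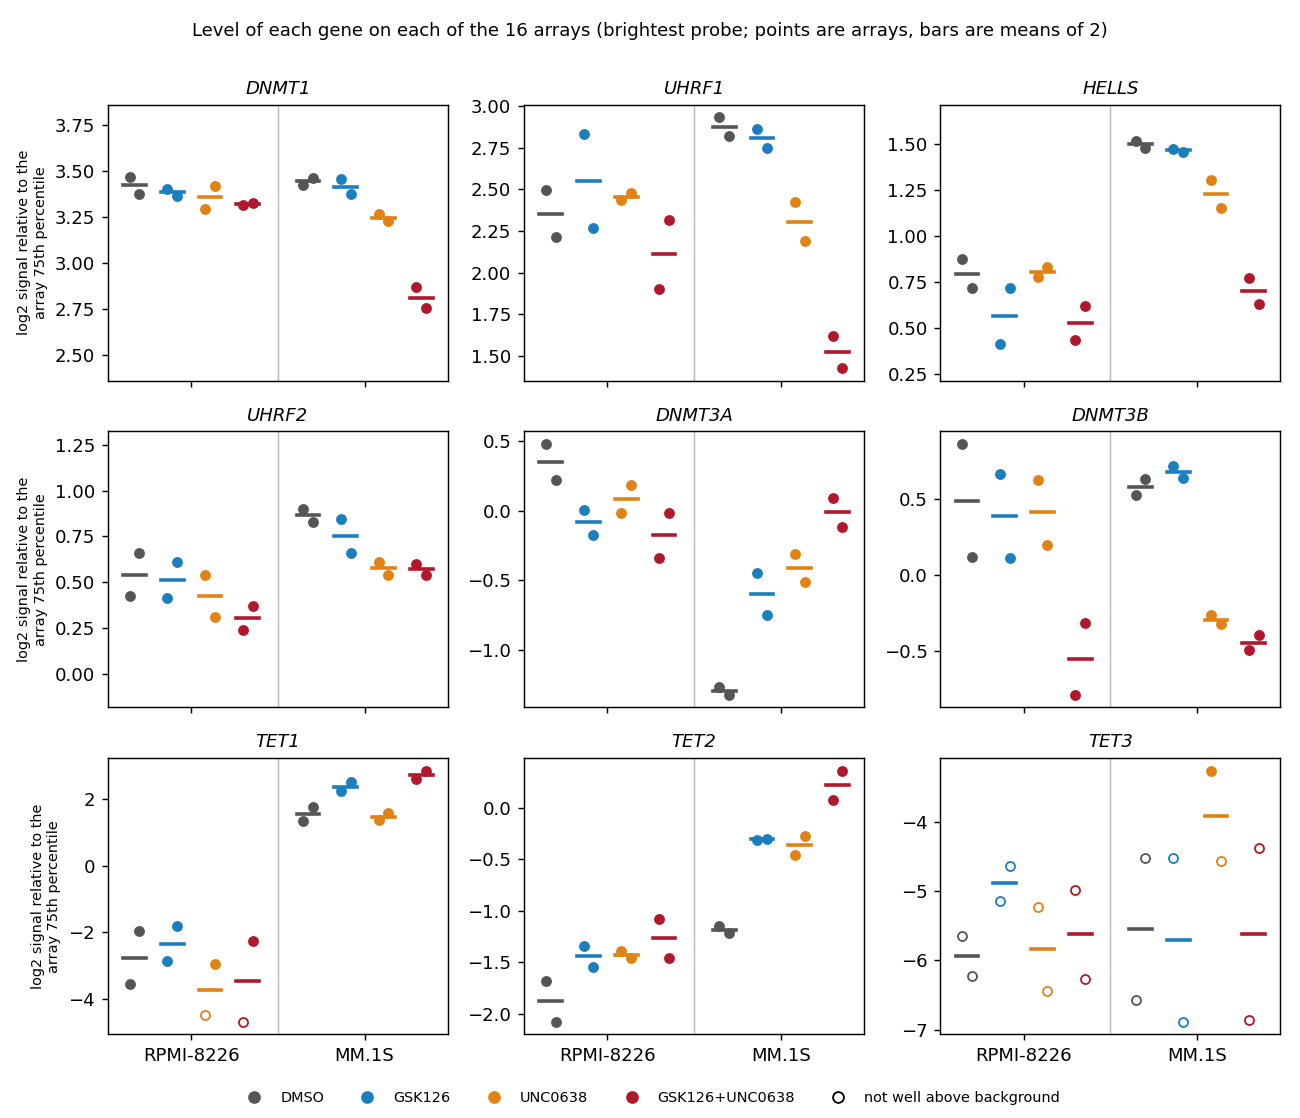
Level of each gene on each array (log2 signal relative to the 75th percentile of the array, brightest probe), by cell line and treatment, with the scale set for each gene. Points are arrays, bars are means of 2, and open points were not well above background. In MM.1S the 2 combination arrays of DNMT1, UHRF1 and HELLS sit below every other array of the line, and those of DNMT3A and TET2 above every other.

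UHRF1, the factor that guides DNMT1 to replicated DNA, showed the largest fall of the 8 in MM.1S. Its levels there were 2.93 and 2.82 with DMSO, 2.87 and 2.75 with GSK126, 2.42 and 2.19 with UNC0638, and 1.62 and 1.43 with both. Both combination arrays were below all others, both UNC0638 arrays came next, and the GSK126 and DMSO arrays overlapped. The combination change was -1.35 on the log2 scale (SE 0.12, adjusted p = 0.00049), a 2.55-fold lower level, and a second probe gave -1.24 (adjusted p = 0.0024). Both probes lie on chromosome 19 (GRCh37), at 4962065-4962124 and at 4960895-4960954, plus strand. In RPMI-8226 the levels were 2.50 and 2.21 with DMSO and 1.90 and 2.32 with both, so the groups overlapped, and the interval of the change ran from -0.82 to 0.33. The second probe did not overlap there, at -0.27 and -0.16 with both against 0.21 and -0.13 with DMSO.

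DNMT1, the maintenance methyltransferase, stood at 3.43 and 3.46 with DMSO in MM.1S, 3.46 and 3.37 with GSK126, 3.27 and 3.23 with UNC0638, and 2.87 and 2.75 with both. The 2 combination arrays lay below all others. Its change with the combination was -0.63 (SE 0.08, adjusted p = 0.0015), a 1.55-fold lower level. With GSK126 alone the change was -0.03, with an interval from -0.23 to 0.17, and with UNC0638 alone it was -0.20 (adjusted p = 0.12). In RPMI-8226 all 8 arrays lay between 3.30 and 3.47, and the interval of the combination change ran from -0.41 to 0.21. The combination arrays there, at 3.32 and 3.33, lay below both DMSO arrays, at 3.47 and 3.38. The only probe lies on chromosome 19 at 10244023-10244082 (GRCh37), minus strand.

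HELLS, the remodeller, was at 1.52 and 1.48 with DMSO in MM.1S, 1.47 and 1.46 with GSK126, 1.31 and 1.15 with UNC0638, and 0.77 and 0.63 with both. The order of the groups was that of UHRF1 and DNMT1, with the combination lowest and UNC0638 next. The fall with the combination was -0.80 (SE 0.09, adjusted p = 0.001), and the second probe gave -0.92 (adjusted p = 0.0024). In RPMI-8226 the DMSO arrays read 0.88 and 0.72 and the combination arrays 0.43 and 0.62, a change of -0.27 (adjusted p = 0.3), with groups that did not overlap. The 2 probes lie on chromosome 10 at 96354481-96354540 and 96334433-96334492 (GRCh37), plus strand. UHRF2 moved least of the genes called, from 0.90 and 0.83 with DMSO to 0.60 and 0.54 with the combination in MM.1S. That change of -0.29 had an adjusted p of 0.039, its other probe gave -0.23 (adjusted p = 0.066), and leaving out any of 6 of the 8 arrays took the adjusted p past 0.05, as far as 0.153.

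In the same comparison all 20 of 20 genes of DNA replication and S phase fell in MM.1S, beside 32% of all genes. Their median change was -1.02, against -0.11 over all genes and -0.46 over the 8 members. The part of this shift in the falls of DNMT1, UHRF1 and HELLS was not tested. The arrays measured RNA pooled from a whole culture, so fewer cells holding a transcript and less of it in each cell cannot be told apart.

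DNMT3B, a de novo methyltransferase, was called lower in MM.1S with UNC0638 and with the combination, and was not called with GSK126. It read 0.53 and 0.63 with DMSO and 0.71 and 0.64 with GSK126, but -0.26 and -0.32 with UNC0638 and -0.49 and -0.39 with both. The 4 arrays with UNC0638 were all below the 4 without it. The change was -0.87 with UNC0638 (adjusted p = 0.0024) and -1.02 with the combination (SE 0.08, adjusted p = 0.00042, 2.03-fold lower), whereas with GSK126 it was 0.10, with an interval from -0.11 to 0.30. The combination differed from GSK126 by -1.12 (adjusted p = 0.0012), and from UNC0638 by -0.15 (adjusted p = 0.27). In RPMI-8226 the DMSO arrays were far apart, at 0.86 and 0.12, and the combination arrays read -0.78 and -0.31, below the 6 others. The mean change of -1.04 was close in size to that in MM.1S, but its adjusted p was 0.088 and its interval ran from -1.83 to -0.25. The difference between the lines in this change was -0.02, with an interval from -0.85 to 0.81. In RPMI-8226 the 2 arrays with UNC0638 alone, at 0.62 and 0.20, lay within the range of DMSO. The probe is at 31397064-31397123 on chromosome 20 (GRCh37), plus strand, and a second probe of this symbol was not well above background on any array.

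DNMT3A, the other de novo enzyme, went the opposite way from DNMT3B in MM.1S and moved differently in the 2 lines. Its levels in MM.1S were -1.27 and -1.32 with DMSO, -0.45 and -0.75 with GSK126, -0.31 and -0.51 with UNC0638, and 0.09 and -0.12 with both. Every treated array was above both DMSO arrays, the combination arrays were highest, and the single-agent groups overlapped. The rise with the combination was 1.28 (SE 0.14, adjusted p = 0.00086), 2.43-fold. In RPMI-8226 the levels were 0.48 and 0.22 with DMSO, 0.01 and -0.17 with GSK126, -0.02 and 0.18 with UNC0638, and -0.34 and -0.02 with both, so every treated array was below both DMSO arrays. The combination change there was -0.53 (adjusted p = 0.1), and the difference between the lines in this change was -1.81 (SE 0.23, adjusted p = 0.0011). DNMT3A began 3.13-fold higher in RPMI-8226 with DMSO (adjusted p = 1.1e-05), and with the combination the levels of the lines overlapped.

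The 3 probes of DNMT3A, all on chromosome 2 (GRCh37), minus strand, did not behave alike between the lines. The 2 brighter ones, at 25457095-25457154 and 25456415-25456474, read 1.65 and 1.70 higher in RPMI-8226 than in MM.1S with DMSO. The third, at 25504394-25504453 and labelled with another transcript of the gene, read lower there, at -3.56 and -4.29 with DMSO against a mean of -2.23 in MM.1S, and only the first of these RPMI-8226 arrays was well above background. All 3 rose with the combination in MM.1S, by 1.28, 0.88 and 0.58, and in RPMI-8226 the 2 brighter gave -0.53 and -0.55, of which neither was called. The third did not fall there, at -3.21 and -3.66 with the combination, which overlapped its DMSO arrays. With UNC0638 alone in RPMI-8226 the second brightest did not fall, at 0.38 and 0.57 against 0.34 and 0.45 with DMSO. The difference between the lines in the combination change was called for the 2 brighter probes. For the third it is not given, since its level in RPMI-8226 with DMSO rests on 1 array above background.

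TET2, which oxidises methylcytosine, rose with each treatment in MM.1S. The levels were -1.15 and -1.22 with DMSO, -0.31 and -0.31 with GSK126, -0.46 and -0.27 with UNC0638, and 0.08 and 0.36 with both. The single agents overlapped each other and lay between DMSO and the combination. The rises were 0.87 with GSK126 (adjusted p = 0.017), 0.82 with UNC0638 (adjusted p = 0.007) and 1.40 with both (SE 0.12, adjusted p = 0.00046), the last being 2.64-fold. In RPMI-8226 the DMSO arrays, at -1.68 and -2.07, were the lowest of the 8, and the combination arrays read -1.08 and -1.45. That change was 0.61 (adjusted p = 0.096). The difference between the lines was -0.79, with an interval from -1.33 to -0.25 (adjusted p = 0.058). On same-numbered RPMI-8226 arrays the combination read -1.08 against -1.68 with DMSO, and -1.45 against -2.07. With the replicate number as a block TET2 was called in RPMI-8226. It was then also called between the lines, where the block used the numbers of MM.1S too. All 4 TET2 probes, on chromosome 4 between 106163842 and 106200629 (GRCh37), plus strand, were called higher with the combination in MM.1S, by 0.91 to 1.93. With GSK126 alone only the brightest of the 4 was called, and with UNC0638 alone 2 were. Without the block 1 of the 4 was called in RPMI-8226, the second brightest, with a rise of 0.92 (adjusted p = 0.042).

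TET1, the founding member of the TET enzymes, was measured on all 8 MM.1S arrays, at 1.36 and 1.78 with DMSO, 2.24 and 2.52 with GSK126, 1.37 and 1.60 with UNC0638, and 2.60 and 2.86 with both. The 4 arrays with GSK126 were above the 4 without it, and UNC0638 overlapped DMSO. The rise was 1.16 with the combination (SE 0.19, adjusted p = 0.0034), while GSK126 alone gave 0.81 and did not pass (adjusted p = 0.057), although it did in 5 of 19 alternatives. The combination stood 1.25 above UNC0638 (adjusted p = 0.019). This held for 1 of 3 probes. The brightest lies at 70332072-70332131 on chromosome 10 (GRCh37), plus strand, upstream of the others at 70454164-70454223 and 70453516-70453575, which gave -0.15 (adjusted p = 0.47) and 0.32 (adjusted p = 0.12) with the combination. Taken as the mean over its probes, TET1 changed by 0.44 (adjusted p = 0.041). In RPMI-8226 the brightest probe was well above background on 6 of 8 arrays and both others on 0. With DMSO it read -3.56 and -1.96, a mean 20.1-fold lower than in MM.1S (adjusted p = 0.00078), and leaving out 1 array moved this log2 difference of -4.33 to between -5.13 and -3.53. The others read at least 11.9-fold and at least 4.72-fold lower with DMSO, both called. The interval of the combination change in RPMI-8226 ran from -3.00 to 1.59, too wide to show a change of the size seen in MM.1S. As in MM.1S, replicate 1 read below replicate 2 in all 4 groups of RPMI-8226. Within same-numbered arrays the differences from DMSO were -1.12 and -0.29 with the combination and -0.94 and -1.01 with UNC0638, with replicate 1 not above background in either treatment, and with the block TET1 was not called for the combination (adjusted p = 0.15). TET3 had probes at 74328560-74328619 and 74329639-74329698 on chromosome 2 (GRCh37), plus strand, and gave no usable level in either line.

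**Figure D2:**
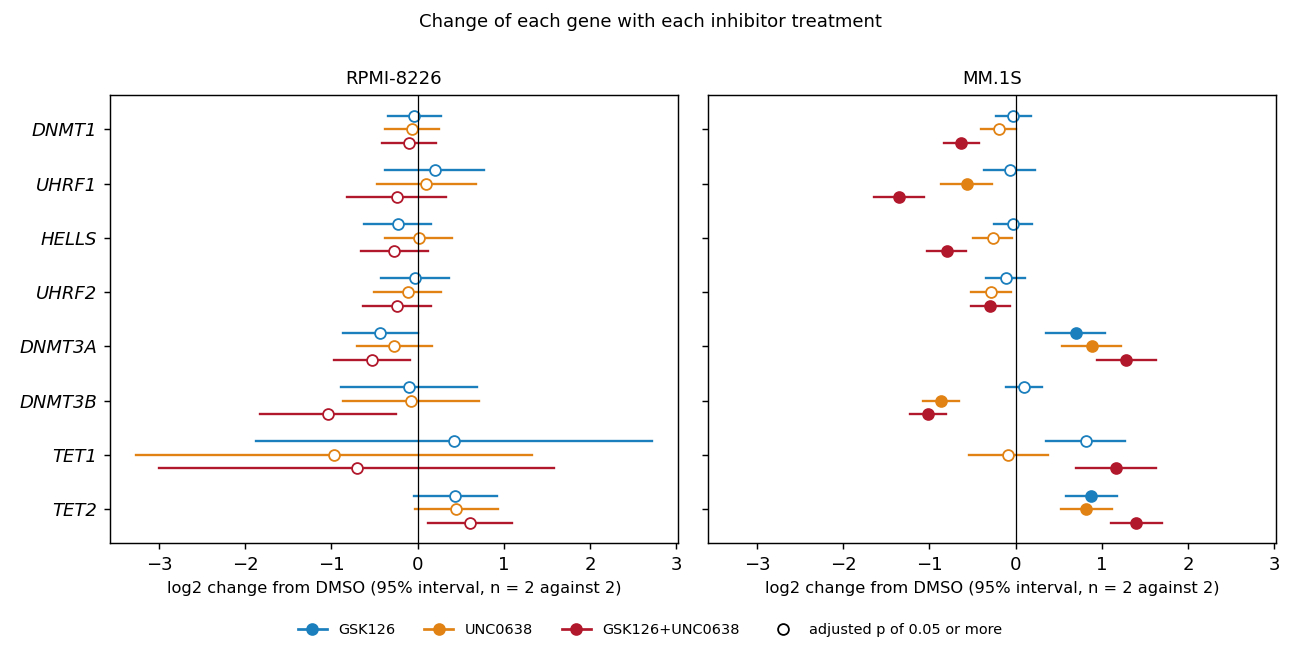
Log2 change from DMSO of the 8 genes tested, with 95% intervals, for each treatment in RPMI-8226 (left) and MM.1S (right), n = 2 arrays against 2. Filled points passed limma's adjusted p of 0.05: all 8 for the combination in MM.1S, and 0 in RPMI-8226.

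**Figure D3:**
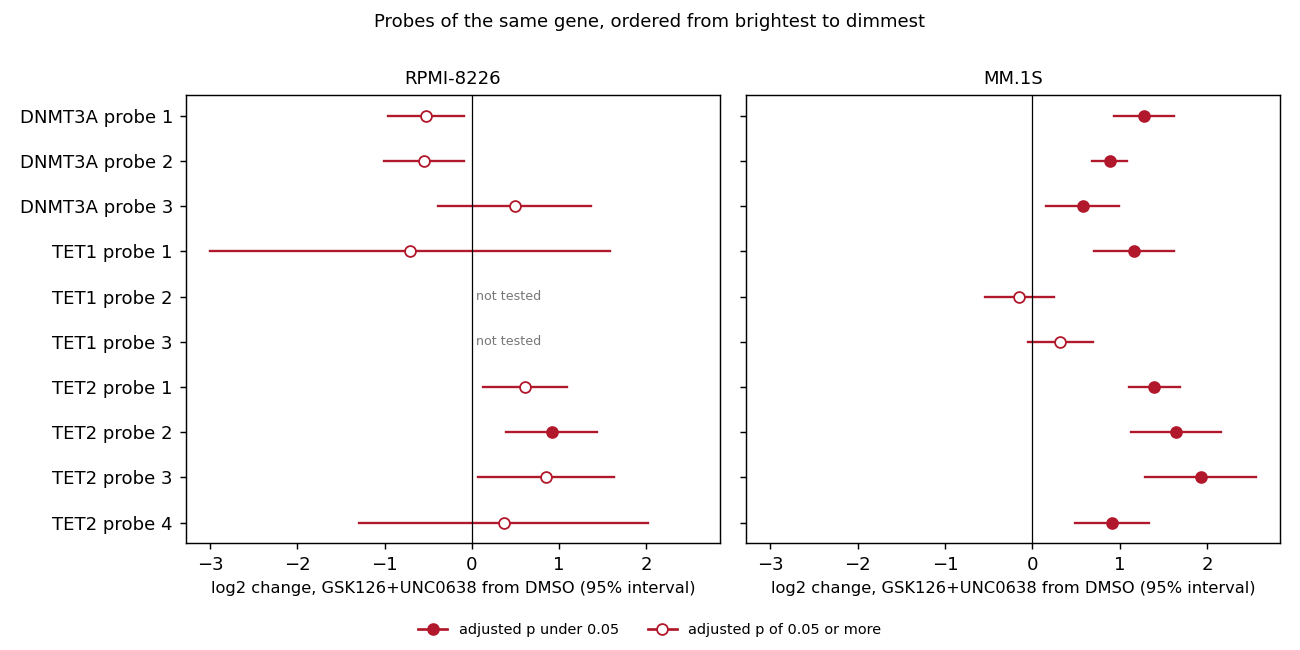
Log2 change with GSK126+UNC0638 from DMSO of each probe of DNMT3A, TET1 and TET2, ordered by brightness, with 95% intervals. In MM.1S all 3 probes of DNMT3A and all 4 of TET2 passed the test (filled points), and of TET1 only the brightest did.

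The plot of the changes of the 8 genes also shows the single agents, which were not tested against each other. GSK126 alone called 2 members in MM.1S, DNMT3A and TET2, both higher, where 5.74% of genes were called higher and 2.37% lower. The DNMT3A call was lost when any of the 8 arrays was left out, and the TET2 call for 4 of them. UNC0638 alone called 4, DNMT3A and TET2 higher and DNMT3B and UHRF1 lower, where 13.8% of genes were called higher and 16.7% lower, and the UHRF1 fall of -0.57 (adjusted p = 0.019) was lost when any of 3 arrays was left out and was -0.50 (adjusted p = 0.086) at the second probe. HELLS and UHRF2 changed by -0.27 and -0.29 with UNC0638 and did not pass (adjusted p = 0.075 and 0.065), although the second HELLS probe did, at -0.47 (adjusted p = 0.048). The higher share of all probe calls with the percentile over detected probes was 83.2% in place of 67.6% for GSK126, and 59.9% in place of 43.3% for UNC0638, and with normexp background correction it was 53.5% for GSK126. In RPMI-8226 0 of 8 members were called by limma with GSK126, where 0.712% of genes were called, or with UNC0638, where 0.724% were, and 0 had an unadjusted p under 0.05 in either.

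Against GSK126 alone, the combination called 6 members in MM.1S. DNMT1, UHRF1, HELLS and DNMT3B were lower, among 22.1% of all genes, and DNMT3A and TET2 were higher, among 16.2%. Against UNC0638 alone it called 5, DNMT1, UHRF1 and HELLS lower, among 7.34% of genes, and TET1 and TET2 higher, among 6.69%. UHRF1 was lower by 0.78 in the last comparison (a change of -0.78, adjusted p = 0.019), and all 5 calls were lost without either UNC0638 array or without the second combination array. The DNMT1 call was lost when any of the 8 arrays was left out, the HELLS and TET2 calls for 7 of 8, and those of UHRF1 and TET1 for 3. The combination was not called beyond GSK126 for TET1, at 0.35 (adjusted p = 0.19), beyond UNC0638 for DNMT3A, at 0.40 (adjusted p = 0.11), or beyond either for UHRF2. In RPMI-8226 0 of 8 were called in either, with 2.77% and 3.7% of genes called, and DNMT3B alone had an unadjusted p under 0.05 in both (changes of -0.94 and -0.96, adjusted p = 0.21 and 0.19). The higher share of probe calls moved with the percentile over detected probes from 41.5% to 56.7% and from 46.2% to 73.0% in MM.1S, and with quantile normalization from 77.8% to 67.3% and from 80.1% to 68.4% in RPMI-8226. Departure from additivity, the combination change minus the sum of the single-agent changes, was called for 0 of 8 members in MM.1S, as for 0% of genes there, and for 0 of 8 in RPMI-8226, where 0.175% of genes were called. In MM.1S it was -0.71 for UHRF1, -0.50 for HELLS and -0.41 for DNMT1, each with an unadjusted p under 0.05 and adjusted p between 0.37 and 0.41. No member had an unadjusted p under 0.05 for it in RPMI-8226.

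Between the lines, a difference in the change from DMSO was tested for each treatment. With the combination 3 of 8 members were called, DNMT3A at -1.81, DNMT1 at 0.53 (adjusted p = 0.029) and UHRF1 at 1.11 (adjusted p = 0.031), each as RPMI-8226 minus MM.1S, where 14.4% of 18180 genes were called. With UNC0638 DNMT3A was called at -1.15 (adjusted p = 0.031), where 3.21% of genes were, and with GSK126 0 were called, where 0.913% of genes were and 1 member, DNMT3A, had an unadjusted p under 0.05. With the block 5 were called for the combination, with TET1 and TET2 added, and 1 for GSK126, DNMT3A. That block used the replicate numbers of both lines, although those of MM.1S were not taken to pair its arrays. For the combination the block also raised the calls over all probes, from 3520 of 26931 to 5075. Without it TET1 was at -1.87 (adjusted p = 0.303), and its first RPMI-8226 combination array, at -4.69, was not above background. The combination calls of DNMT1 and UHRF1 were lost when any of 7 and of 6 of the 16 arrays was left out, and the UNC0638 call of DNMT3A for 7, whereas DNMT3A was called for the combination with each of the 16 left out in turn. HELLS, at 0.53 (adjusted p = 0.084), did not pass.

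With DMSO alone the lines differed at 5 of 8 members, beside 59.1% of all genes. DNMT3A was higher in RPMI-8226, and TET1, TET2, HELLS and UHRF1 were lower, with changes of -4.33, -0.69, -0.70 and -0.52 as RPMI-8226 minus MM.1S. The UHRF1 difference (adjusted p = 0.047) was lost when any of 11 of the 16 arrays was left out. DNMT1 and DNMT3B differed by -0.02 and -0.09, with intervals from -0.23 to 0.19 and from -0.68 to 0.50. UHRF2 was at -0.32 (adjusted p = 0.055) with its brighter probe and at -0.88 (adjusted p = 0.00032) with the other.

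Genes that work with these enzymes were read from lists by the same rule, with the combination against DMSO. Of the S phase list, 2 of 20 fell in RPMI-8226, MCM4, a subunit of the replicative helicase, by 0.81 (a change of -0.81, adjusted p = 0.039), and CDT1, which loads that helicase, at -0.61 (adjusted p = 0.041). Over all genes 5.03% were called lower there. The list's median in RPMI-8226 was -0.33, against -0.12 over all genes, and its count ran from 0 to 6 over the alternatives other than leaving out an array. In MM.1S the same 2 genes were at -1.18 and -1.17, and UNC0638 alone lowered 11 of the 20 and GSK126 1. Over all genes UNC0638 lowered 16.7% and GSK126 2.37% in that line. Of 10 measured partners and regulators of the methyltransferases, 9 fell and 1 rose in MM.1S, with a median of -0.71, and 0 were called in RPMI-8226. Over all genes 32% were called lower and 23.2% higher in MM.1S, and 5.03% lower and 8.06% higher in RPMI-8226. PCNA, the replication clamp that binds DNMT1, was at -0.86, TRIM28, a corepressor of transposons and imprinted loci, at -0.97, and SETD2, the H3K36 methyltransferase, rose by 0.32. With the percentile over detected probes 6 of the 10 were called in MM.1S.

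Of the 8 methyl-CpG readers, ZBTB4, a zinc finger protein that binds methylated DNA, rose in both lines, by 1.48 in MM.1S (adjusted p = 0.00032) and by 0.72 in RPMI-8226 (adjusted p = 0.034), and also with each agent alone in MM.1S. MBD2, MBD3 and MBD4 fell in MM.1S, by 0.53, 0.65 and 0.31 on the log2 scale (changes of -0.53, -0.65 and -0.31). These were 3 of the 8 readers, beside 32% of all genes, so the count is near that over all genes. Of 12 measured genes of oxidised base removal and TET partners, 3 fell and 1 rose in MM.1S, where 32% of all genes fell and 23.2% rose, so these counts are not above those over all genes. The glycosylase TDG, which excises the oxidised bases, was at -0.65, APEX1 at -0.52 and CXXC5 at -0.45, and CXXC4 (IDAX), which binds TET2, rose by 0.77. In RPMI-8226 1 of the 12 fell, GADD45B, at -1.21 (adjusted p = 0.032). In the methyl donor cycle AHCY, which clears the S-adenosylhomocysteine that methyltransferases produce, fell in both lines, with changes of -1.41 in MM.1S (adjusted p = 0.00045) and -0.67 in RPMI-8226 (adjusted p = 0.045), and 3 of 8 genes fell in MM.1S and 1 of 7 in RPMI-8226, beside 32% and 5.03% of all genes. Only 2 of 10 germline genes that promoter methylation is known to silence were measured in each line, SYCP3 and MAGEA1 in MM.1S and MAGEA1 and MAGEB2 in RPMI-8226. The 2 in MM.1S fell, at -1.54 and -0.73, and 0 were called in RPMI-8226. Of the inhibitors' target genes and their paralogs, EZH2 and EHMT2 were lower in MM.1S, at -1.10 (adjusted p = 0.0035) and -0.32 (adjusted p = 0.036), EZH1 and EHMT1 were not called, at 0.11 and -0.13, and none of the 4 was called in RPMI-8226.

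**Figure D4:**
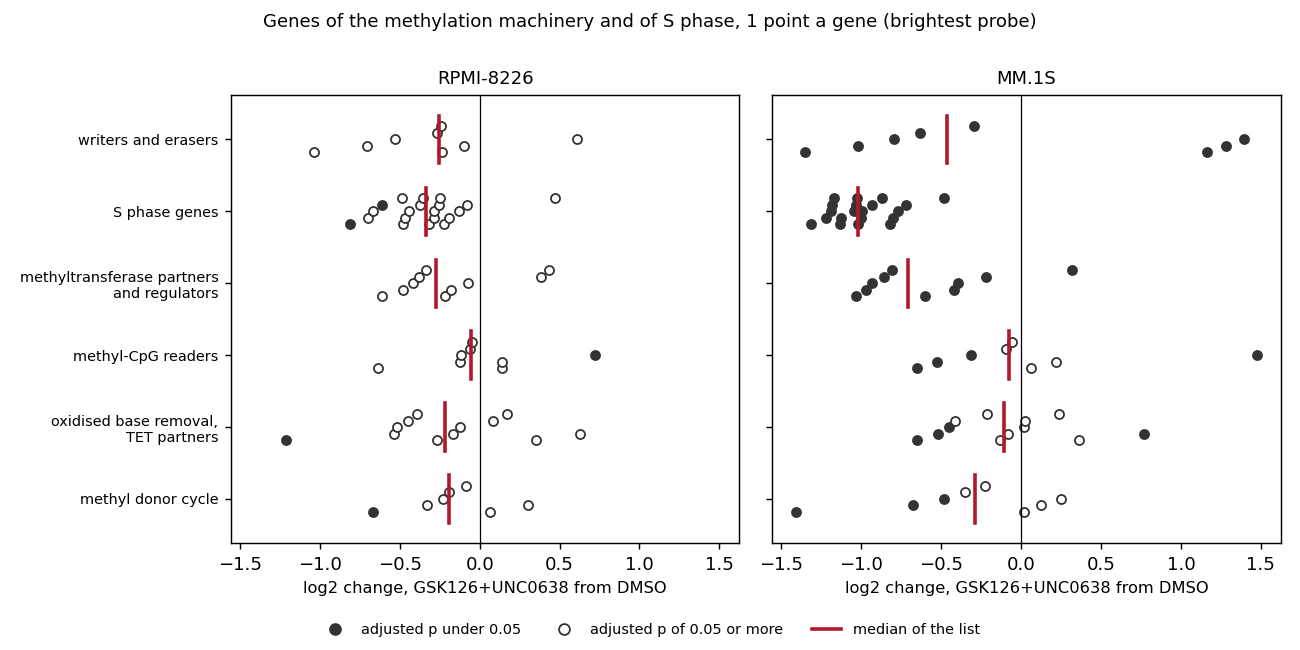
Log2 change with GSK126+UNC0638 from DMSO of each gene of 6 lists, 1 point a gene (filled where limma's adjusted p was under 0.05), with the median of each list as a red bar. In MM.1S all 20 S phase genes were filled and below 0, and the 8 writers and erasers lay on both sides of 0.

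The profile of a gene over the 8 arrays of a line was compared with that of every other gene, as a Pearson r averaged over the lines. This was done for the 7 members above background on all 16 arrays, and the arrays share their treatment groups, so the values describe these arrays only. UHRF1 was most like RRP9, EIF4G1 and ERAL1 (mean r 0.98, 0.97 and 0.97), and DNMT3B like C19orf51, SORD and CTXN1 (0.97, 0.97 and 0.96). HELLS was most like LOC100289092, LOC641746 and PRIM1 (0.98, 0.97 and 0.97), of which PRIM1 is a subunit of DNA primase. TET2 was most like TMEM14A, SNX10 and LILRA1 (0.96, 0.96 and 0.95), DNMT1 like TACO1, TUBA4A and SKA2 (0.94, 0.91 and 0.91), DNMT3A like PLD4, LINC00094 and EIF4G3 (0.91, 0.89 and 0.89), and UHRF2 like SNORA40, SNORA1 and LOC400499 (0.91, 0.89 and 0.89). Among the members themselves, DNMT1 correlated with HELLS and UHRF1 at 0.99 and 0.99 over the MM.1S arrays and at 0.36 and 0.51 over the RPMI-8226 arrays. In the same order of lines UHRF1 and HELLS stood at 0.99 and 0.10, and UHRF1 and DNMT3B at 0.89 and 0.82. DNMT1 and DNMT3A stood at -0.77 and 0.76.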

How the data were processed

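Expression was measured on 16 1-colour Agilent arrays, 2 for each line and treatment. The authors labelled RNA, read each array with Feature Extraction 10.7.3.1 and deposited a processed intensity per spot, background-subtracted but not normalized between arrays. A table of the series, also deposited, holds the same intensity values (99.9958% equal after rounding). Control and outlier spots were dropped, and log2 intensities were centred on the 75th percentile of the array and averaged per probe. Probes entered a line's fit if both arrays of some group were well above background. Of the spots, 46.5% to 49.7% of an array were well above background in RPMI-8226 and 49.9% to 52.8% in MM.1S. No spot was saturated, and replicates correlated at 0.986 to 0.995. With 2 arrays a group precision is limited, and p-values measure the spread between these cultures. limma (3.58.1, R 4.3.3, Benjamini-Hochberg adjustment) used the 8 arrays of a line, or all 16 between lines, and was tested on simulated data. A bound ("at least") compares the brighter mean with, per array, whichever is higher of the dim probe and the dimmest probe well above background. Genes of the other lists are named where called alike in both lines with the combination, with examples added after their values were seen. Members and lists were chosen with earlier results of these data known. Same-numbered RPMI-8226 arrays deviated together in 6 of 6 pairs of groups (r across probes 0.254 to 0.415), so the labels' numbers were taken to pair them, which they were not in MM.1S (5 of 6, 0.0847 to 0.225). The number also follows the row of the slide. Alternatives were quantile normalization, normexp correction (offset 50), other filters, scaling and samples in the fit, the series table, the block, each array left out, an intensity trend, the mean over probes and a 2-fold limit. LYZ and HBA1 of the marker lists, and the study's other assays, were not analysed here, and some genes of the lists are not reported here.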

Additional observations from a re-analysis of the deposited data

Results flagged for a closer look

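The effect of a treatment differed between the cell lines for 3 genes by the interaction test of limma, as RPMI-8226 minus MM.1S on the log2 scale. DNMT3A differed by -1.81 with the combination (adjusted p = 0.0011) and by -1.15 with UNC0638 (adjusted p = 0.031). In both cases its brightest probe was lower on both treated RPMI-8226 arrays than on either DMSO array of the line. On both treated MM.1S arrays it was higher than on either DMSO array. With UNC0638 the second brightest probe was not lower in RPMI-8226, at 0.38 and 0.57 against 0.34 and 0.45 with DMSO. With the combination DNMT1 differed by 0.53 (adjusted p = 0.029) and UHRF1 by 1.11 (adjusted p = 0.031), with falls in MM.1S. In RPMI-8226 the combination overlapped DMSO at the brightest UHRF1 probe but lay below it at the second. Both DNMT1 combination arrays there, at 3.32 and 3.33, also lay below the DMSO arrays, at 3.47 and 3.38. The groups of 2 arrays were too small to look for single outlying arrays.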

How the results depend on the processing

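Each count of members called and each member's change was recomputed under the alternatives, and no called change reversed its direction. In MM.1S the count of 8 for the combination against DMSO was 5 beyond 2-fold and 7 to 8 with an array left out, and of the 19 alternatives other than the 2-fold limit UHRF2 was lost in 11, TET1 in 1 (1 fit over all 16 arrays, adjusted p = 0.274) and the other 6 in 0. For GSK126 the count of 2 became 1 with quantile normalization, only the groups compared, 1 fit over all 16 arrays and the mean over probes, 0 with no filter or beyond 2-fold, and 3, with TET1, with normexp correction, the percentile over detected probes, the trend or only probes above background on all arrays, with 0 to 1 when an array was left out. For UNC0638 the count of 4 became 2 in 1 fit over all 16 arrays, 0 beyond 2-fold and 6, with UHRF2 and HELLS, with normexp correction or the trend, with 3 to 4 when an array was left out. The combination against GSK126 gave 6, 2 beyond 2-fold and 4 to 6 with an array left out. Against UNC0638 it gave 5, and 0 with no filter or only the groups compared, 2 in 1 fit over all arrays, 1 beyond 2-fold and 0 to 4 with an array left out. In RPMI-8226 the combination count of 0 became 1 with normexp correction or an intensity trend (DNMT3B in both) and 3 in 1 fit over all 16 arrays, where against UNC0638 it became 1 (DNMT3B), and all 6 comparisons gave 0 with any array left out. Between the lines the count for GSK126 of 0 became 1 with normexp correction, the percentile over detected probes or the trend (DNMT3A in each) and stayed 0 with an array left out. That for UNC0638 of 1 became 0 with no filter, only the groups compared or the mean over probes, with 0 to 1 when an array was left out. That for the combination of 3 became 5 with normexp correction and 1 with no filter or only the groups compared, with 1 to 3 when an array was left out. With DMSO alone the count of 5 was 2 beyond 2-fold and 4 to 6 with an array left out. The causes of these moves were not tested.

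With the replicate number as a block, the pairing gave 1 member for the RPMI-8226 combination (TET2), and between the lines 1 for GSK126 and 5 for the combination. The block between the lines used the numbers of both lines. In MM.1S the numbers were not taken to pair the arrays, although every r there was positive (0.0847 to 0.225). The block gave 3 for GSK126, 6 for UNC0638, 7 for the combination against GSK126 and 6 against UNC0638 in that line. In no other comparison did it move the count by over 1.5 times. Signal over background limits TET3 in both lines and TET1 in RPMI-8226, and the lone array left in a group when the other is dropped was assumed to vary like the other groups. Over all probes the number called also moved by over 1.5 times in all comparisons but the MM.1S combination against DMSO and the lines with DMSO. In RPMI-8226 it ran from 13 to 595 around 139 for GSK126, 25 to 538 around 148 for UNC0638, 965 to 6449 around 2916 for the combination, 160 to 1997 around 598 against GSK126, 289 to 2407 around 784 against UNC0638 and 0 to 179 around 34 for additivity. In MM.1S it ran from 283 to 3979 around 1877 for GSK126, 3143 to 8959 around 7397 for UNC0638, 5341 to 10442 around 9250 against GSK126, 57 to 5576 around 3272 against UNC0638 and 0 to 62 around 0 for additivity. Between the lines it ran from 73 to 605 around 209 for GSK126, 360 to 1482 around 767 for UNC0638 and 1744 to 5075 around 3520 for the combination. These leave aside the 2-fold limit. A block for the slide could not be fitted within a line, since each line was on 1 slide.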
